A study of Homo sapiens with 9 samples.

Results

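Among the miRNA hairpins counted in this small RNA sequencing study are 9 entries whose sequence lies in, or closely resembles, another class of structured RNA. They were chosen by name, from a list of such entries: hsa-mir-664a, hsa-mir-664b, hsa-mir-1291, hsa-mir-1248 and hsa-mir-3607 resemble small nucleolar RNAs (snoRNAs), hsa-mir-1246 and hsa-mir-1290 resemble the U2 small nuclear RNA (snRNA), and hsa-mir-1260a and hsa-mir-1260b resemble transfer RNA (tRNA). All 9 of 9 were found among the 1485 hairpins of the count table. Cells of HEK293E, a line derived from human embryonic kidney, were transfected with siRNAs on days 0 and 3 and harvested on day 5. They received siGFP or siControl as controls, or siERH-3 or siERH-5 against ERH, which encodes a small nuclear protein. Replicates 1 and 2 exist for siGFP, siControl and siERH-3, and siERH-5 was present in replicate 2 alone. K562, a leukaemia line with erythroid features, received siGFP or siERH-5 in 1 library each and was harvested 4 days after transfection.

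Most miRNAs are cut from hairpins of a primary transcript by Microprocessor, a complex of the nuclease DROSHA and the RNA-binding protein DGCR8, and are then trimmed by the nuclease DICER1. ERH binds DGCR8 and is known to help Microprocessor with some hairpins that are poor substrates on their own. H/ACA snoRNAs guide pseudouridylation of other RNAs and carry an ACA box close to their 3′ end, U2 snRNA pairs with the intron branch site in the spliceosome, and tRNAs receive a CCA tail after transcription. Fragments of all these RNAs can be as long as a miRNA, so an entry in a miRNA catalogue can collect reads that Microprocessor did not make.

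The sequences of the entries were compared with each other and with snoRNA and snRNA transcripts, but not with tRNAs. Mature sequences were taken from RefSeq (GRCh38.p14), which matched 8 of the 9 entries, hsa-mir-3607 being the exception. For the 3 pairs with related sequences, which hold all the entries called below, a mature miRNA of each entry is printed 5′ to 3′. The seed (bases 2 to 8) is in capitals, and hsa-miR-664a-5p and hsa-miR-664b-5p, from the other arm of their hairpins, are left out.
hsa-miR-664a-3p: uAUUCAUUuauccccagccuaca
hsa-miR-664b-3p: uUCAUUUGccucccagccuaca
hsa-miR-1246: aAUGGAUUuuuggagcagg
hsa-miR-1290: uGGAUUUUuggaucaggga
hsa-miR-1260a: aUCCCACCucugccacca
hsa-miR-1260b: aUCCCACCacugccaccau
hsa-miR-1260a and hsa-miR-1260b share the seed UCCCACC, which no other human mature sequence of the table has. Over the 18 compared bases they differ by U9A, counted from the 5′ end with the base of hsa-miR-1260a first, and hsa-miR-1260b is 1 base longer. The seeds of hsa-miR-664a-3p and hsa-miR-664b-3p differ, but both sequences end in the same 11 bases, CCCAGCCUACA. The seeds of hsa-miR-1246 and hsa-miR-1290 differ as well, because the 12 bases that they share, UGGAUUUUUGGA, start at position 3 of the first and position 1 of the second.

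In the snoRNA-like pair, hsa-miR-664a-3p and hsa-miR-664b-3p lie close to the 3′ end of annotated H/ACA snoRNAs. hsa-miR-664a-3p was found whole at positions 106 to 128 of the 131 bases of SNORA36B, and hsa-miR-664b-3p at positions 108 to 129 of the 132 bases of SNORA36A. SNORA36C holds hsa-miR-664b-3p as well, so a read of that sequence fits more than one locus. Both matches end 3 bases before the end of the snoRNA, with ACA as their last letters. Each hairpin also has a product from its other arm, further from that end. hsa-miR-664a-5p was found at positions 68 to 91 of SNORA36B and hsa-miR-664b-5p at positions 69 to 92 of SNORA36A. The counts do not separate the arms, so which product the reads came from cannot be told. The last bases of both snoRNAs are shown with the -3p product in capitals, from the GENCODE 29 transcripts on GRCh38.
SNORA36B: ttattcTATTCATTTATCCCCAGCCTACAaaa
SNORA36A: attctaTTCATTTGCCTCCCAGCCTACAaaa
ACANNN, read on the transcript strand, ended 112 of the 149 transcripts named SNORA (75.2%). hsa-miR-1248 was found at positions 1 to 27 of SNORA81 and hsa-miR-1291 at positions 2 to 25 of SNORA2C, the opposite end of the snoRNA.

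hsa-miR-1246 was found whole inside U2. It takes positions 94 to 112 of the 191 bases of RNU2-1, in capitals below.
RNU2-1: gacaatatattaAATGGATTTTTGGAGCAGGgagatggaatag
The same 19 bases were found in 19 of 1900 snRNA transcripts, 12 of them named RF00004, the Rfam family of U2, and the others RNU2-1 or an RNU2 pseudogene. The 12 bases shared by hsa-miR-1246 and hsa-miR-1290 were found in 31 of the 1900 snRNA transcripts, all of them among the 90 named RNU2 or RF00004, and in 2 of 2370 human mature miRNAs, these same ones. Which of these loci a read of hsa-miR-1246 came from cannot be told from its sequence. On the tRNA-like side, CCA ended 45 of the 2370 mature sequences (1.90%), and CCACCA ended 1, hsa-miR-1260a. hsa-miR-1260b has CCACCA followed by its extra base. tRNA sequences were not used here, so the pair was not matched to a tRNA gene, and its class is that of the list.

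The entries lie in different genomic settings. In GENCODE 29 (GRCh38), hsa-mir-664a is at chr1:220200538-220200619 on the minus strand, in an intron of RAB3GAP2, and overlaps SNORA36B by 74 bases. hsa-mir-664b is at chrX:154768596-154768656 on the plus strand. It overlaps an exon of an annotated transcript of DKC1, the pseudouridine synthase gene, and overlaps SNORA36A over its whole 61 bases. hsa-mir-1291 is at chr12:48654444-48654530 on the minus strand in an intron of KANSL2. hsa-mir-1248 is at chr3:186786672-186786777 on the plus strand, and overlaps an exon of an annotated transcript of EIF4A2, a translation factor gene. hsa-mir-3607 is listed by RefSeq as the snoRNA gene SNORD138, at chr5:86620506-86620568 of GRCh38.p14. hsa-mir-1290 is at chr1:18897071-18897148 on the minus strand in an intron of ALDH4A1. No gene was annotated on the same strand over hsa-mir-1246 (chr2:176600980-176601052, minus), hsa-mir-1260a (chr14:77266218-77266290, plus) or hsa-mir-1260b (chr11:96341438-96341526, plus).

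The 9 libraries held 2609929 to 3320017 hairpin counts, so that 3 counts correspond to 0.904 to 1.15 reads per 1e+06 mapped to hairpins (RPM). Erythroid hairpins checked the cell lines: hsa-mir-451a was at 25.9 ± 6.46 RPM (SD, n = 4) in the HEK293E controls and 23104 RPM in K562 with siGFP, and hsa-mir-144 at 19.3 ± 2.02 and 7903 RPM. ERH mRNA is not measured by small RNA sequencing, so the knockdown was not checked here. The labels do not say whether replicates came from separate cultures, so p-values measure only the spread between these samples, which may be technical. Levels are given as raw counts, and as counts per 1e+06 after scaling libraries by edgeR's trimmed mean of M-values (CPM). A hairpin entered a test when its counts averaged at least 10 per library, as for 7 of the 9 entries in HEK293E; hsa-mir-1248 and hsa-mir-1290 did not. In the siERH comparison a hairpin was called at an adjusted p under 0.05 in the quasi-likelihood test of edgeR, adjusted after Benjamini-Hochberg over 773 hairpins.

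Together the entries made up a small share of the hairpin counts, and hsa-mir-1260b supplied nearly all of it. The 9 entries took 0.132 to 0.163% of counts in the 4 HEK293E controls and 0.0995 to 0.122% in the 3 siERH libraries. hsa-mir-1260b alone was 93.4 to 95.5% of the entries' counts in the controls and 84.8 to 87.3% with siERH. Without it, the direction of the difference turned: the other 8 entries took 0.00631 to 0.0108% of counts in the controls and 0.0126 to 0.0177% with siERH. These shares are of raw library totals, and a few entries weigh most in them. hsa-mir-664a gave 184 of 480 and 294 of 549 counts with siERH-3, and 289 of 410 with siERH-5. hsa-mir-1246 gave 171 and 131 with siERH-3. hsa-mir-1260a, also among the 8, fell. In K562 the share of all 9 was 0.0714% in the siGFP library (0.0682 to 0.0747% by the 95% Wilson method) and 0.0557% in the siERH-5 library (0.0532 to 0.0583%), counting error only. The share of the other 8 was 0.00620% and 0.0113%.

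The siERH libraries did not move the entries in 1 direction. In the 3 siERH against the 4 control libraries of HEK293E, 4 of the 7 tested entries were called, a share to be read against the 40% of all 773 hairpins that were called. hsa-mir-664b and hsa-mir-1246 rose, where 23.8% of all hairpins rose, and hsa-mir-1260a and hsa-mir-1260b fell, where 16.2% of all hairpins fell. The pair that fell has near-identical mature sequences, so its calls are not shown to be separate. The other 3 tested entries, hsa-mir-664a, hsa-mir-1291 and hsa-mir-3607, did not pass the threshold. The median log2 fold change was 0.19 over the 7 entries and -0.010 over all hairpins tested.

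**Figure D1:**
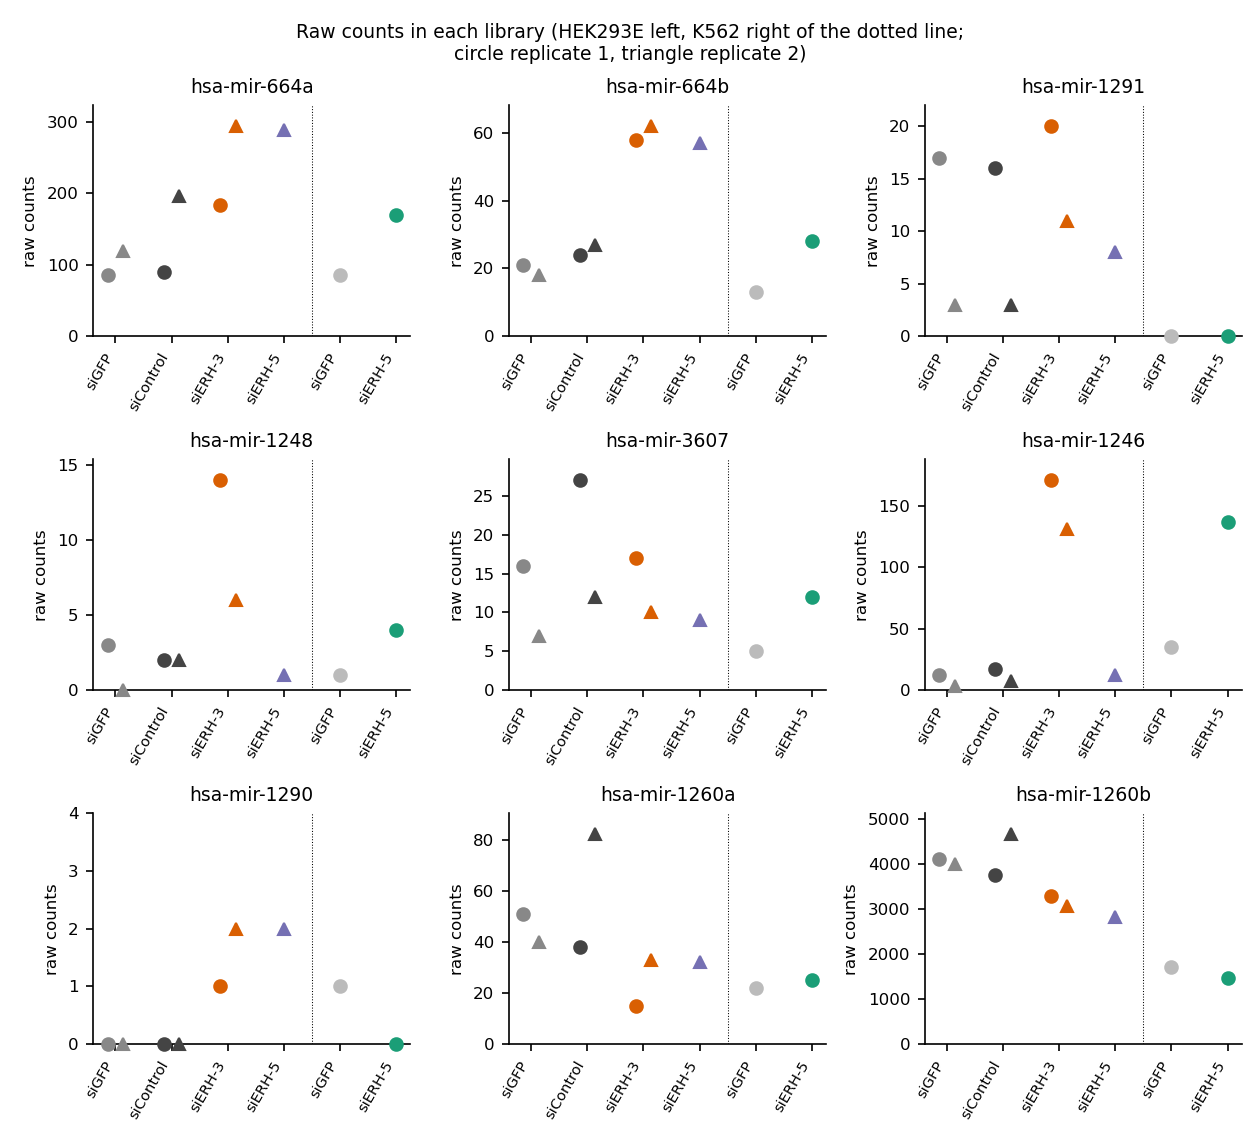
Raw counts of each of the 9 entries in each library, with HEK293E to the left and K562 to the right of the dotted line; circles are replicate 1, triangles replicate 2, and each panel has its own axis from 0. hsa-mir-664b lies at 57 to 62 counts with siERH and 18 to 27 in controls, and hsa-mir-1246 is high in both siERH-3 libraries and at 12 counts in the HEK293E siERH-5 library.

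Of the snoRNA-like entries, hsa-mir-664b was called, and its groups did not overlap. It had 21 and 18 counts with siGFP and 24 and 27 with siControl (replicates 1 and 2), against 58 and 62 with siERH-3 and 57 with siERH-5. All 3 siERH libraries lay above all 4 controls. Its level was 8.07 ± 1.77 CPM (SD, n = 4) in controls and 17.4 ± 1.38 CPM (SD, n = 3) with siERH, and it rose by 1.12 on the log2 scale (SE 0.24, adjusted p = 0.0058 by edgeR's quasi-likelihood test). Groups without any overlap were found for 44.6% of the 773 hairpins. In a fit with each siRNA taken separately against the same controls, siERH-3 gave 1.17 (edgeR adjusted p = 0.014; 30.8% of hairpins called). The single siERH-5 library, assumed to vary like the other groups, gave 1.01 (adjusted p = 0.075; 17.9% of hairpins called).

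hsa-mir-664a, the more abundant of the pair, differed between replicates as well as between siRNAs. It had 85 counts with siGFP, 90 with siControl and 184 with siERH-3 in replicate 1. In replicate 2 it had 119 with siGFP, 197 with siControl, 294 with siERH-3 and 289 with siERH-5. Each siERH library was above both controls of its own replicate, but siERH-3 of replicate 1 (54.5 CPM) was below siControl of replicate 2 (74.8 CPM), so the groups overlapped. Levels beyond both controls of the own replicate in all 3 siERH libraries were found for 56.1% of hairpins.

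Without a term for the replicate, the siERH change of hsa-mir-664a was 0.74 ± 0.35 (SE, log2 scale), which was not called (edgeR adjusted p = 0.12). With the replicate number as a block it was 0.66 (SE 0.21, adjusted p = 0.019) and was called, where 48.6% of all hairpins were called. In the same fit replicate 2 was above replicate 1 by 0.95 (adjusted p = 0.019), where 11.5% of hairpins differed between replicates in either direction. The hairpin of hsa-mir-664a has 31.7% GC, against a median of 51.1% over 772 tested hairpins. With the trend on GC content removed, its siERH change was 0.040 (adjusted p = 0.93), and that of hsa-mir-664b (42.6% GC) was 0.75 (adjusted p = 0.023). The part of GC content in these changes was not otherwise tested.

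The ratio of the pair does not depend on how libraries are scaled. On the log2 scale, hsa-mir-664a to hsa-mir-664b was 2.35 ± 0.48 (SD, n = 4) in controls and 2.08 ± 0.37 (SD, n = 3) with siERH, a difference smaller than either SD. Within replicates, however, each siERH library lay below both controls: 1.66 against 1.99 and 1.89 in replicate 1, and 2.24 and 2.33 against 2.69 and 2.84 in replicate 2. This difference was not tested. hsa-mir-664a was the higher of the pair in all 9 libraries. In K562, the siERH-5 library held 170 counts of hsa-mir-664a against 85 with siGFP, and 28 of hsa-mir-664b against 13. After scaling, the log2 ratios of siERH-5 to siGFP were 0.36 (exact 95% counting interval -0.012 to 0.77) and 0.41 (-0.52 to 1.55), with both intervals holding 0. Scaling mattered here: by library totals the ratios were 0.64 and 0.66, and on the deposited RPM 0.65 and 0.71.

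The remaining snoRNA-like entries had few counts. hsa-mir-1291 had 17, 16 and 20 counts with siGFP, siControl and siERH-3 of replicate 1, and 3, 3, 11 and 8 with siGFP, siControl, siERH-3 and siERH-5 of replicate 2. Its libraries sorted by replicate more than by siRNA: replicate 2 was lower by -1.51 (SE 0.38, edgeR adjusted p = 0.025), and in the same blocked fit the siERH change was 0.56 (SE 0.38, adjusted p = 0.24). Without the block it was 0.19 (SE 0.55, adjusted p = 0.80), with a 95% interval of -0.88 to 1.27. Each siERH library was above both controls of its own replicate, and no fit called the difference. It had 0 counts in both K562 libraries, which allows up to 1.15 RPM with siGFP and 0.904 RPM with siERH-5.

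hsa-mir-3607 had 16, 27 and 17 counts with siGFP, siControl and siERH-3 of replicate 1, and 7, 12, 10 and 9 with siGFP, siControl, siERH-3 and siERH-5 of replicate 2. In counts every siERH library lay within the range of the controls, while after scaling siERH-5 (2.56 CPM) was just under the lowest control (2.95 CPM). The siERH change was -0.61 ± 0.43 (SE), with an edgeR adjusted p of 0.29. The K562 libraries held 5 counts of it with siGFP and 12 with siERH-5. hsa-mir-1248 was barely detected, with 0 to 3 counts in the HEK293E controls, 14 and 6 with siERH-3 and 1 with siERH-5. Fitted without the count minimum, its log2 fold change was 1.62 (edgeR adjusted p = 0.13). The K562 libraries held 1 and 4 counts.

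**Figure D2:**
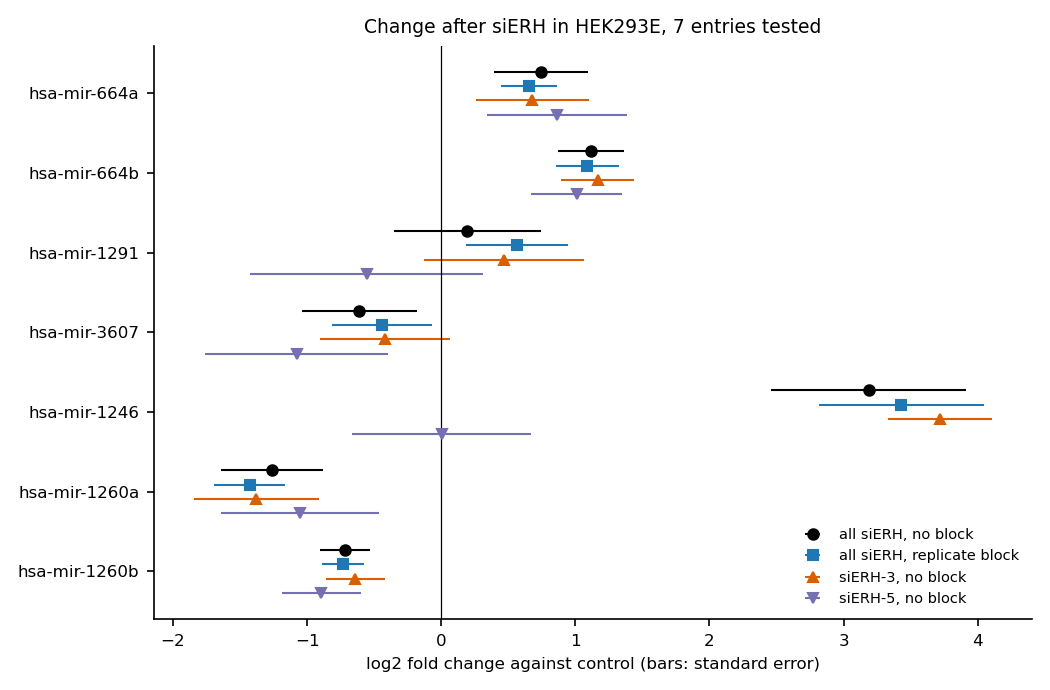
Log2 fold change against the 4 HEK293E controls of the 7 entries tested, with standard errors as bars, for all siERH libraries without and with the replicate block and for siERH-3 and siERH-5 taken separately. hsa-mir-1246 sits at 3.72 with siERH-3 and 0.0034 with siERH-5, while for hsa-mir-664b, hsa-mir-1260a and hsa-mir-1260b all 4 estimates lie on the same side of 0. The separate siERH-3 and siERH-5 estimates are without the block, so siERH-5 of replicate 2 is set against controls of both replicates.

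Of the U2-like pair, hsa-mir-1246 had the fifth highest log2 fold change of the 773 hairpins, and its high libraries were those of siERH-3. In replicate 1 it had 12 counts with siGFP and 17 with siControl, and 171 with siERH-3. In replicate 2 it had 3 with siGFP and 7 with siControl, 131 with siERH-3 and 12 with siERH-5. Both siERH-3 libraries were far above all controls, while the siERH-5 library (3.41 CPM) lay inside the range of the controls (1.26 to 5.97 CPM), though above both controls of its own replicate.

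Over all siERH libraries hsa-mir-1246 rose by 3.19 (SE 0.73, edgeR adjusted p = 0.0073), from 3.33 ± 1.97 CPM (SD, n = 4) to 31.3 ± 24.8 CPM (SD, n = 3). With the siRNAs taken separately the change was 3.72 (SE 0.39, adjusted p = 0.00031) for siERH-3 and 0.0034 (SE 0.67, 95% interval -1.30 to 1.31) for siERH-5. The siERH-5 estimate sets its only library, of replicate 2, against controls of both replicates. In the blocked fit the change of hsa-mir-1246 from replicate 1 to replicate 2 was -1.22. Against the mean of the controls of its own replicate, siERH-5 had a log2 ratio of 0.57 (TMM CPM + 1). The difference between the siERH siRNAs was itself tested. siERH-5 was below siERH-3 by -3.72 (adjusted p = 0.075), a comparison in which edgeR called 0 of 773 hairpins and 31 had an unadjusted p under 0.05. With the replicate block it was -3.40 (adjusted p = 0.016), where 0.388% of hairpins (3 of 773) were called. siERH-5 had 1 HEK293E library.

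K562 received siERH-5 and not siERH-3. Counts of hsa-mir-1246 there were 35 in the siGFP and 137 in the siERH-5 library, or 14.8 and 37.4 CPM. The log2 ratio was 1.28 (exact 95% counting interval 0.80 to 1.92), past the 2-fold mark that 10.1% of the 646 hairpins measured there exceeded upwards. The interval reaches below that mark, and the ratio depends on the scaling and on the pseudocount. With 1 library in each K562 group this has no replicate check, and whether siERH-5 acted differently in the cell lines was not tested. Its starting level in K562, 13.8 RPM, was above all 4 HEK293E controls, at 3.53 ± 1.93 RPM (SD, n = 4).

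hsa-mir-1290 shares 12 bases with hsa-mir-1246 but was almost undetected. It had 0 counts in all 4 HEK293E controls, 1 and 2 with siERH-3, 2 with siERH-5, and 1 and 0 in K562 with siGFP and siERH-5. All of these are under the 3 counts that 0 counts allow, so no fold is given. In the siERH-3 libraries, where hsa-mir-1246 had 171 and 131 counts, hsa-mir-1290 therefore stayed below 3.

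**Figure D3:**
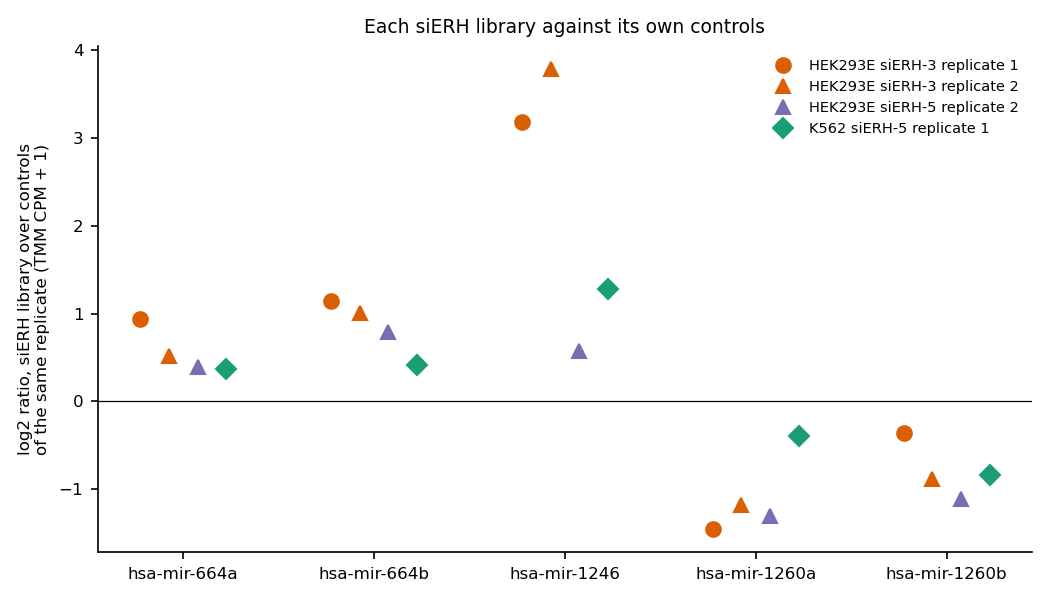
Log2 ratio of each siERH library to the mean of the controls of its own cell line and replicate (TMM CPM plus 1) for 5 entries, with colour for the siRNA and cell line and marker shape for the replicate. hsa-mir-664a, hsa-mir-664b and hsa-mir-1246 lie above 0 and hsa-mir-1260a and hsa-mir-1260b below 0 in all 4 siERH libraries, and hsa-mir-1246 spans 0.57 to 3.79.

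Both tRNA-like entries fell, but their mature sequences are near-identical. Whether reads of hsa-mir-1260a were told apart from those of hsa-mir-1260b was not checked, so the falls are not shown to be separate. hsa-mir-1260b, the most abundant of the 9, had 4124 and 4009 counts with siGFP and 3749 and 4659 with siControl in replicates 1 and 2. It had 3285 and 3071 with siERH-3 and 2818 with siERH-5. All 3 siERH libraries were below all 4 controls, both in counts and after scaling, from 1488 ± 286 CPM (SD, n = 4) to 903 ± 91.2 CPM (SD, n = 3). This is a log2 fold change of -0.72 ± 0.19 (SE), with an edgeR adjusted p of 0.011. Without the siERH-5 library it was -0.63 (adjusted p = 0.060) and no longer called.

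hsa-mir-1260a had 51 and 40 counts with siGFP and 38 and 82 with siControl in replicates 1 and 2. It had 15 and 33 with siERH-3 and 32 with siERH-5. The siERH libraries were again all below the controls, at 7.86 ± 3.00 against 19.0 ± 8.25 CPM (SD, n = 3 and 4), and siControl of replicate 2 was the highest of the controls. The siERH change was -1.26 ± 0.38 (SE), with an edgeR adjusted p of 0.022. The call was lost without siERH-3 of replicate 1 (-0.94, adjusted p = 0.086) and without siERH-5 (-1.37, adjusted p = 0.053). With the replicate block, replicate 2 was above replicate 1 by 0.88 (adjusted p = 0.046).

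siERH-5 and siERH-3 did not differ detectably for the tRNA-like entries. With the replicate block, siERH-5 minus siERH-3 was -0.41 for hsa-mir-1260b (95% interval -0.90 to 0.072, edgeR adjusted p = 0.69) and -0.033 for hsa-mir-1260a (-0.96 to 0.89, adjusted p = 0.98). The interval of hsa-mir-1260b holds differences as large as its siERH change, and that of hsa-mir-1260a holds smaller ones.

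Within a library, hsa-mir-1260b far outnumbered hsa-mir-1260a although their mature sequences differ by 1 substitution and 1 end base. The log2 ratio of hsa-mir-1260a to hsa-mir-1260b was -6.34 ± 0.38 (SD, n = 4) in controls and -6.89 ± 0.72 (SD, n = 3) with siERH. The siERH values, -7.73 to -6.44, overlapped those of the controls, -6.63 to -5.82. In K562, counts of hsa-mir-1260b were 1704 in the siGFP and 1474 in the siERH-5 library, a log2 ratio of -0.84 after scaling (exact 95% counting interval -0.94 to -0.74). Those of hsa-mir-1260a were 22 and 25, a ratio of -0.39 (-1.33 to 0.45). The median log2 ratio of all 646 hairpins in K562 was 0.11. hsa-mir-1260b was also lower in K562 before siERH, at 652 RPM against 1393 ± 155 RPM (SD, n = 4) in the HEK293E controls.

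The control siRNAs give the background for these values. Between siControl and siGFP (2 libraries each), edgeR called 0 of 730 hairpins (0%), with 24 at an unadjusted p under 0.05, and DESeq2 called 2 lower and 2 higher. The replicate block raised this to 61 lower and 72 higher (18.2%). Among the tested entries the log2 differences were 0.11 for hsa-mir-1260b, 0.46 for hsa-mir-664b, 0.50 for hsa-mir-1260a, 0.53 for hsa-mir-664a and 0.85 for hsa-mir-3607, all with an edgeR adjusted p of 0.96. The difference between control siRNAs for hsa-mir-3607 was thus larger than its siERH change.

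**Figure D4:**
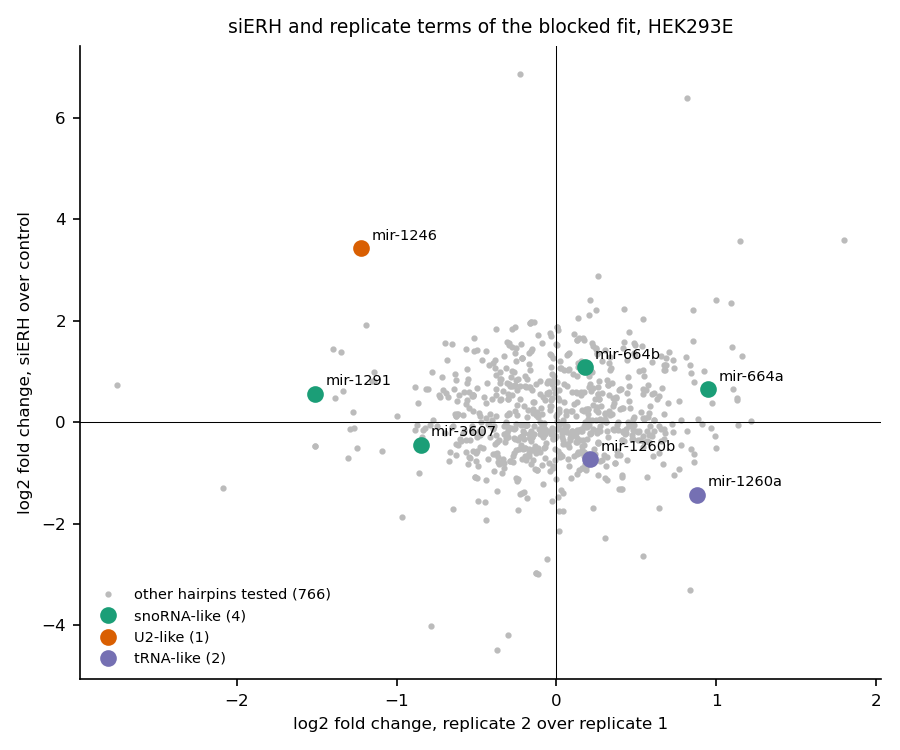
Log2 fold change of siERH over control (vertical) against that of replicate 2 over replicate 1 (horizontal) from the blocked fit in HEK293E, with 766 other hairpins in grey and the 7 tested entries coloured by class. hsa-mir-664b and hsa-mir-1260b lie near 0 on the replicate axis (0.18 and 0.21), hsa-mir-1291 lies furthest to the left of the entries at -1.51, and hsa-mir-1246 is at 3.43 on the siERH axis.

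Other hairpins of unusual origin were set beside the entries. Hairpins that overlap an annotated structural RNA on the same strand numbered 8, of which 4 are not among the 9 entries. hsa-mir-3651 (SNORA84), hsa-mir-3653 (SNORD125), hsa-mir-6516 (SCARNA16) and hsa-mir-7641-2 (a 5S rRNA pseudogene) had a median log2 fold change of -0.061, and none was called with TMM scaling. On library totals hsa-mir-7641-2 was called (0.79, edgeR adjusted p = 0.041). A wider list of entries from structural RNAs had 14 in the table and 12 tested, with a median of -0.38. It had 3 calls, beside 40% of all hairpins, and with the replicate block 4 fell and 2 rose. hsa-mir-605, which overlaps no annotated structural RNA and whose place in the list is doubtful, rose by 0.91 (edgeR adjusted p = 0.0080), and hsa-mir-3687-1 fell by 1.22 (adjusted p = 0.0092). hsa-mir-3687-2, a copy with the same counts, is the third called and is no independent value.

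Of 11 hairpins in a list of mirtrons with hsa-mir-484, which bypass DROSHA through splicing or a capped short transcript, 8 were tested. hsa-mir-1237 fell by 0.80 (edgeR adjusted p = 0.037), no other was called, and the median was -0.18. That call was lost on library totals (-0.63, adjusted p = 0.13), where hsa-mir-1229 was called instead (0.77, adjusted p = 0.022), and none was called with the GC trend removed. Of the 8 members of the hsa-mir-320 family, 7 were tested and 0 were called (4 rose with the replicate block), with a median of 0.55. The family was listed as not made by Microprocessor in the usual way, which was not checked here for its members. By edgeR with TMM and no block, the calls in these lists were thus 3 of 12, 1 of 8 and 0 of 7. Beside them stand 4 of 7 for the 9 entries and 40% of all hairpins. With the replicate block, 4 fell and 2 rose in the wider list. In the mirtron list 1 then fell, and in the hsa-mir-320 family 4 rose. Of the 7 tested entries, 2 fell and 3 rose with the block, beside 48.6% of all hairpins called. Whether the lists differ from the entries was not tested.

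The hairpins whose pattern over the 7 HEK293E libraries was most like that of each class, by Pearson's r of log2(CPM + 1) with the class mean, were named by rank. For the snoRNA-like entries these were hsa-mir-942 (r = 0.94), hsa-mir-3126 (0.93) and hsa-mir-3173 (0.92). For the U2-like pair they were hsa-mir-3155a (0.95), hsa-mir-610 (0.95) and hsa-mir-3173 (0.94), and for the tRNA-like pair hsa-mir-4517 (0.98), hsa-mir-365b (0.98) and hsa-mir-365a (0.98). These are descriptions over 7 libraries that share their siRNAs and replicates. The class means also took in hsa-mir-1248 and hsa-mir-1290, which had too few counts to be tested. The named hairpins were picked by likeness over these same libraries, so a siERH change in the direction of the class follows from the choice. Such a change is no separate result. hsa-mir-365a, for example, went from 1681 CPM in controls to 709 CPM with siERH, a log2 fold change of -1.25.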

How the data were processed

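The deposited table of counts per hairpin (9 libraries, 1485 hairpins; 2336 blank cells read as 0) was used as the authors gave it. The authors' RPM values equal (count + 1) / (library total + 1485) per 1e+06, by recomputation, and were used to set cell lines side by side. Per the labels, 18 to 30 nt RNA was gel-purified. The submitters' processing notes name cutadapt, Bowtie2, bedtools and hg38; versions, annotation and the handling of reads that fit several loci are not given in the sources used here, and the arms of a hairpin were not separated. Counts were fitted in HEK293E with edgeR 4.0.16 (R 4.3.3): TMM scaling, a mean of at least 10 counts, quasi-likelihood test, Benjamini-Hochberg adjustment over all hairpins tested, adjusted p under 0.05. Standard errors are the log2 fold change over the square root of F. DESeq2 1.42.0 and limma 3.58.1 were alternatives. siRNAs taken separately, and the fits without the count minimum for the 2 rarest entries, were added after the data were seen.

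The replicate numbers of the titles match the experimental groups of the labels. Deviations of libraries with the same number correlated over 773 hairpins (r = 0.69, 0.48 and 0.52 for the 3 pairs of siRNAs). The numbers were taken to pair the libraries only in the fits with the replicate block. The main fit, which gave the calls, had no replicate term, so its standard errors and p-values leave this pairing out. K562 has 1 library per group: ratios used TMM CPM + 1, with exact intervals for counting error only. The intervals were computed from the scaled counts without the added 1, so they belong to ratios slightly different from those printed. The sources used here do not say whether duplicate reads were merged. In simulated data with the means and sizes of the siERH comparison, 138 of 189 hairpins changed 2-fold were called (73%), 0 with the wrong sign. Among the 732 tested, which include the 189 changed ones, 6 unchanged ones were called. The simulated libraries had no replicate effect, so these rates need not hold where libraries with the same number deviate together.

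The entries and lists were chosen with earlier results of these data known. Named hairpins are all 9 entries, called members of the compared lists, and the 3 most alike in pattern to each class. hsa-mir-320 was read as the names with a letter suffix.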

Additional observations from a re-analysis of the deposited data

Results flagged for a closer look

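hsa-mir-1246 differed between the siRNAs against ERH in HEK293E: siERH-5 minus siERH-3 was -3.40 on the log2 scale (edgeR adjusted p = 0.016 with the replicate block, 3 of 773 hairpins called), and -3.72 (adjusted p = 0.075) without the block. The counts behind it are 171 and 131 with siERH-3 and 12 with siERH-5, which has 1 library. None of the 12 sets of 4 HEK293E control values that were checked held a value far from the other 3.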

How the results depend on the processing

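hsa-mir-664b rose and was called in 20 of 20 alternatives (0.70 to 1.35). hsa-mir-1246 was called in 19 of 20, the exception being siControl as the only control (2.80, edgeR adjusted p = 0.058), hsa-mir-1260a in 17 of 20 and hsa-mir-1260b in 20 of 21; hsa-mir-1260a was also lost with siGFP as the only control (adjusted p = 0.079). hsa-mir-664a was called in 5 of 21, among them library totals, limma, the replicate block and the fit without siControl of replicate 2 (1.09, adjusted p = 0.017), and turned to -0.051 with the GC trend removed and the replicate block together. hsa-mir-1291 turned to -0.051 and -0.082 without siGFP or siControl of replicate 2 (-0.082 to 0.56 over the libraries left out). Over all hairpins, lower calls were 125 by edgeR, 67 when scaled by totals, 66 with limma at a pseudocount of 1 RPM and 63 at 10 RPM, 63 with a mean of at least 100 counts (82 higher) and 190 with GC and block; 121 were higher with the GC trend removed. The median log2 fold change was 0.19 on library totals, against -0.010 with TMM. Lower calls on library totals were 24.0% of calls, against 40.5% with TMM and 56% with the GC trend removed. Leaving out 1 library gave 76 to 130 lower and 136 to 189 higher.

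The replicate block gave 159 lower and 217 higher hairpins for siERH, and changed the call of no tested entry except hsa-mir-664a. With the block the siERH change was 1.09 for hsa-mir-664b (edgeR adjusted p = 0.0023) and 3.43 for hsa-mir-1246 (adjusted p = 0.00068). It was -1.43 for hsa-mir-1260a (adjusted p = 0.00086) and -0.73 for hsa-mir-1260b (adjusted p = 0.0022). For siControl against siGFP the block gave 61 lower and 72 higher, and DESeq2 and no filter each gave 2 and 2. In that comparison, leaving out 1 library gave 0 lower and 0 to 1 higher. There hsa-mir-1260b turned to -0.019 on library totals and to -0.11 and -0.13 without siGFP of replicate 1 or siControl of replicate 2, the latter also turning hsa-mir-664a (-0.23) and hsa-mir-1260a (-0.24). Over the libraries left out these ranged from -0.13 to 0.37, -0.23 to 1.12 and -0.24 to 0.98. With the block, siERH-5 against control was 0.42 for hsa-mir-1291 (-0.56 without), and siERH-5 against siERH-3 was -0.27 for hsa-mir-664a and -0.033 for hsa-mir-1260a. The log2 ratio of hsa-mir-1246 to hsa-mir-1290 (siERH minus control 0.84, or 2.02 at a pseudocount of 5) is set by the pseudocount, since hsa-mir-1290 had at most 2 counts, and is not interpreted; it ran from -0.10 to 2.16 over the libraries left out, the former without siERH-3 of replicate 1. In K562 hsa-mir-1260b was -0.55 on library totals. The cause of these changes was not tested. Depth limits hsa-mir-1290, hsa-mir-1248 and hsa-mir-1291 most.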
